A study of Homo sapiens with 6 samples.

Results

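PQBP1 (polyglutamine binding protein 1) and 9 genes whose proteins bind it or belong to the U5 small nuclear ribonucleoprotein (snRNP) and the U4/U6.U5 tri-snRNP were examined in HEY ovarian cancer cells. The 10 genes were chosen by name, and all 10 were found in the deposited table of 32679 genes. They are PQBP1, TXNL4A, WBP11, WBP4, PRPF8, SNRNP200, EFTUD2, PRPF6, SNRNP40 and PRPF31. The data are short-read RNA-seq of poly(A) RNA from 3 samples with a control hairpin (shNC) and 3 samples with a hairpin against PQBP1 (shPQBP1), described in the series as biological triplicates of HEY, a human ovarian cancer line. The labels put every sample at day 3, and they name doxycycline (1 µg/ml), the inducer of the hairpin, for shPQBP1 alone, with shNC left untreated. The hairpin and doxycycline therefore cannot be told apart. For the PQBP1-depleted HEY cells of its splicing counts, a legend of the paper names a shorter doxycycline treatment than 3 days. For RNA extraction after induction, its methods name that shorter time or a time equal to 3 days. The methods name a single hairpin sequence against PQBP1 in lentivirus-infected, puromycin-selected cells, and a second hairpin was not analysed here. The FPKM values (fragments per kilobase of transcript, relative to all fragments mapped in that sample) were used as deposited, and p-values measure the spread between these samples.

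The tri-snRNP brings the U4/U6 and U5 particles to the forming spliceosome, where U4 is then unwound from U6 and released. PRPF8 is the scaffold of the catalytic core, SNRNP200 is the helicase that unwinds U4 from U6, EFTUD2 is a GTPase that works with it, PRPF6 bridges U5 to U4/U6, SNRNP40 is a WD-repeat protein bound to PRPF8, and PRPF31 is a U4/U6 protein that binds the U4 RNA. TXNL4A is a small thioredoxin-fold protein of U5 that holds the C-terminal end of PQBP1. PQBP1 itself carries a WW domain, a module that binds proline-rich stretches, and WBP11 is among the proteins it binds. WBP4 has a pair of WW domains and joins the spliceosome at the B complex stage. Mutations in PQBP1 cause an X-linked form of intellectual disability.

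Of the 32679 genes, 11413 averaged 1 FPKM or more across all samples and were tested, and all 10 genes were among them. Sequencing depth is unknown, since the table holds no counts. The FPKM values of a sample summed to between 278285.8 and 318484.3. The correlation of log2 values across genes with each of the other samples was lowest for shNC sample 1, between 0.926 and 0.955. Epithelial keratins were present in every sample, with KRT7 between 55.0 and 70.4, KRT8 between 52.8 and 65.6 and KRT18 between 76.6 and 94.6 FPKM. The ovarian lineage factor PAX8 lay between 12.3 and 15.7 FPKM in shNC and between 18.4 and 24.1 in shPQBP1, higher without overlap (log2 fold change 0.53, adjusted p = 0.102 from limma). WT1 was lower without overlap, at 0.63 to 0.71 in shNC and 0.31 to 0.45 in shPQBP1, below the filter, and EPCAM did not exceed 1.13 or MUC16 0.01. The summed FPKM of the 7 epithelial and ovarian markers was 207 to 243 in shNC and 218 to 243 in shPQBP1. The leukocyte marker PTPRC was listed at 0 throughout, the 4 fibroblast markers summed to at most 0.56, and PECAM1 and VWF stayed at or below 0.25, with PECAM1 at 0.23 to 0.25 in shNC and 0.02 to 0.06 in shPQBP1. CD68, on the leukocyte list, lay between 9.12 and 15.6 FPKM in shNC and between 12.1 and 21.2 in shPQBP1, overlapping ranges that make up the whole leukocyte sum. CDH5, on the endothelial list, lay between 2.11 and 2.96 in shNC and between 3.10 and 3.64 in shPQBP1, higher without overlap (log2 fold change 0.44, adjusted p = 0.151 from limma). The part of these markers in the values of the 10 genes was not tested.

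PQBP1 was the only one of the 10 genes to change at an adjusted p under 0.05 (limma on log2(FPKM + 0.1), two-sided, Benjamini-Hochberg over all 11413 genes). It fell to 23.3% of its mean control level. By the same test 332 of all genes tested were called, 2.91%. PRPF8 came next, 0.46 lower on the log2 scale with an adjusted p of 0.0568, and WBP4 was the only gene with a positive log2 fold change. TXNL4A and WBP11, which bind PQBP1 directly, had log2 fold changes of -0.04 and -0.02.

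PQBP1 (ENSG00000102103) spans positions 48890197 to 48903402 of chromosome X (hg38, plus strand), with 7 exons in the canonical transcript. Its FPKM was 7.18, 6.67 and 6.93 in shNC samples 1, 2 and 3 and 1.68, 1.72 and 1.44 in shPQBP1 samples 1, 2 and 3. The groups were far apart, and the spread within each was small. The means were 6.93 ± 0.255 (SD, n = 3) and 1.61 ± 0.151 (SD, n = 3). Relative to the shNC mean, the shPQBP1 samples held 24.3%, 24.8% and 20.8%, so none was without PQBP1 RNA. In bulk samples, fewer cells with the transcript and less of it per cell cannot be told apart. The log2 fold change was -2.04 (standard error 0.10, 95% interval -2.29 to -1.79, adjusted p = 0.00154 from limma), or 0.243 of the control level on the log2(FPKM + 0.1) scale. By p-value PQBP1 ranked 5 of all genes tested.

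The start of PQBP1 faces that of TIMM17B, a subunit of the mitochondrial inner membrane translocase, which is read in the opposite direction. The starts of the canonical transcripts are 162 bp apart, and the 161 bases between them are shown because both genes start at their edges. Any part of this stretch in the change of PQBP1 was not tested. The sequence is chrX:48897769-48897929 of GRCh38.p14, plus strand, from RefSeq, read from just beyond the TIMM17B start towards the PQBP1 start, with the letters CCAAT or their reverse complement ATTGG in capitals.
PQBP1-TIMM17B: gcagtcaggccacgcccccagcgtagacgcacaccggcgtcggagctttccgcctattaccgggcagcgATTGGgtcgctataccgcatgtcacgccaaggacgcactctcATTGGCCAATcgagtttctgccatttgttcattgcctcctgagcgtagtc
The search for CCAAT on both strands found it 3 times, with first letters 92, 50 and 45 bases before the PQBP1 start, the last pair side by side without overlap. Among 35116 RefSeq promoters, 24.5% held at least 1 match in the stretch of the same length before the start, and 1.47% held 3 or more. Windows from 250 bases before to 50 bases after each RefSeq start were also searched. The window of the canonical PQBP1 start held 3 matches, and those of its other starts held 1 and 0. Among the partners with such a window, SNRNP40 held 4 and the others held 1 or 0. A match of letters is a description and not a measured binding site.

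TIMM17B had FPKM values of 3.16, 2.04 and 2.72 in shNC and 2.29, 2.27 and 2.71 in shPQBP1. These overlapped, and the log2 fold change was -0.10 (95% interval -0.53 to 0.33, adjusted p = 0.738 from limma). The difference between the paired genes was not tested. Its exons share 402 of the 3810 exon bases of PQBP1 on the other strand, 16 of them in the canonical PQBP1 transcript. Whether the reads were counted by strand is not given in the sources used here, so reads in shared bases cannot be assigned. SLC35A2, a UDP-galactose transporter whose gene ends within the annotated span of PQBP1 and beyond its canonical transcript, shares 223 exon bases with it but none with the canonical transcript. Its FPKM was 1.80, 1.12 and 1.08 in shNC and 2.02, 1.19 and 2.54 in shPQBP1 (log2 fold change 0.47, adjusted p = 0.392). Of 10 genes listed near PQBP1, 7 were in the table, 5 passed the filter and none was called, with the groups of all 5 overlapping. These 5 were TIMM17B, PIM2, GRIPAP1, OTUD5 and SLC35A2, with a median log2 fold change of -0.06 beside 0.02 over all genes.

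**Figure D1:**
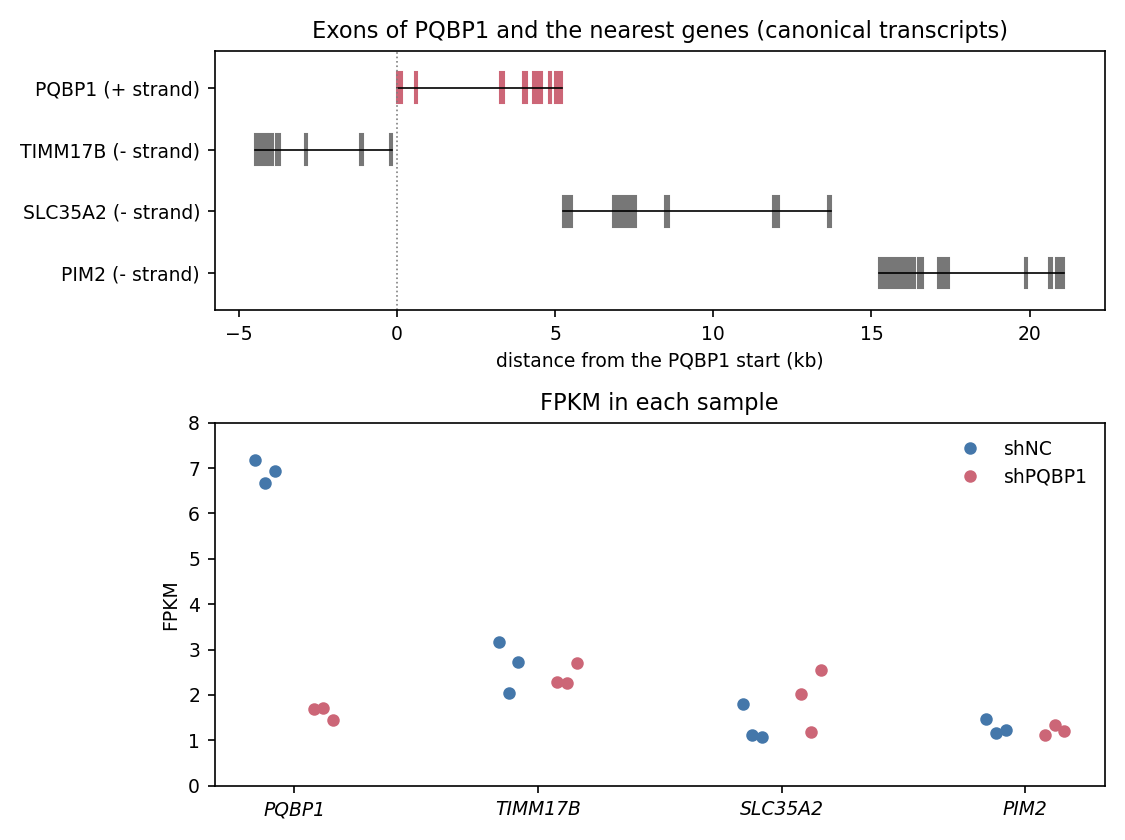
The upper panel draws the exons of the canonical transcripts of PQBP1 and the nearest genes by distance in kb from the PQBP1 start, with the strand of each. The lower panel gives FPKM on a linear axis with 1 point per sample (3 shNC, 3 shPQBP1). The PQBP1 groups are apart (6.67 to 7.18 against 1.44 to 1.72), and those of TIMM17B, SLC35A2 and PIM2 overlap.

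Among the direct partners, TXNL4A (ENSG00000141759) had the lowest control level of the 10 genes. Its FPKM was 3.89, 3.59 and 4.14 in shNC and 4.02, 3.55 and 3.75 in shPQBP1. The groups overlapped, at 3.87 ± 0.275 and 3.77 ± 0.236 (SD, n = 3 each). The 95% interval of its log2 fold change, -0.27 to 0.20, leaves room for a shift of that size in either direction (adjusted p = 0.832 from limma). TXNL4B, its paralog, had 5.43, 4.91 and 4.81 in shNC and 4.28, 4.53 and 3.32 in shPQBP1, with all 3 shPQBP1 samples lower (log2 fold change -0.32, adjusted p = 0.218). The difference between the paralogs was not tested.

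WBP11 (ENSG00000084463) was among the most abundant of the 10 genes and had the smallest SD relative to its mean in shNC, 2.43%. Its FPKM was 41.16, 39.21 and 40.09 in shNC and 38.31, 41.54 and 38.89 in shPQBP1, overlapping groups with means of 40.2 ± 0.976 and 39.6 ± 1.72 (SD, n = 3 each). The 95% interval of the log2 fold change was -0.19 to 0.14 (adjusted p = 0.861 from limma). Its processed copies WBP11P1, WBP11P2 and WBP11P3 did not exceed 0.04 FPKM in any sample.

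WBP4 (ENSG00000120688), the WW domain protein of the B complex, went the other way. Its FPKM was 6.24, 13.38 and 10.85 in shNC and 17.31, 14.33 and 15.63 in shPQBP1. The shPQBP1 samples were all above the shNC samples, whose own values spread widely, from sample 1 to sample 2. The means were 10.2 ± 3.62 and 15.8 ± 1.49 (SD, n = 3 each), and the log2 fold change was 0.69 (standard error 0.28, 95% interval 0.03 to 1.36, adjusted p = 0.201 from limma). Without shNC sample 1 it was 0.38 (adjusted p = 0.159). The WBP4 transcript has the lowest GC content of the 10 genes, 37.5%, and once each sample's trend on GC content and length had been taken out the log2 fold change was 0.43 (adjusted p = 0.125).

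The U5 proteins, which are most of the partners by the choice of genes, made up most of the lower values. PRPF8 (ENSG00000174231), the scaffold, had FPKM values of 42.64, 42.61 and 36.91 in shNC and 27.83, 29.02 and 31.63 in shPQBP1. No shPQBP1 sample reached the lowest shNC sample. The means were 40.7 ± 3.30 and 29.5 ± 1.94 (SD, n = 3 each), a level of 72.4% of control. The log2 fold change was -0.46 (standard error 0.09, 95% interval -0.69 to -0.24), and its adjusted p of 0.0568 from limma was just short of the threshold. It stood under the threshold in 3 of 15 alternative settings, at 0.0466 with quantile normalization, at 0.0440 with genes of a mean FPKM of at least 10, and at 0.0268 with the GC and length trend removed. These settings called 3.65%, 5.76% and 8.84% of all genes they tested. The adjusted p ran from 0.0268 to 0.263 over all 15, and the log2 fold change from -0.53 to -0.42.

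EFTUD2 (ENSG00000108883), the GTPase, had FPKM values of 22.65, 20.28 and 19.90 in shNC and 15.23, 17.57 and 17.57 in shPQBP1. These groups did not overlap either. The log2 fold change was -0.32 (standard error 0.10, 95% interval -0.55 to -0.09, adjusted p = 0.129 from limma), and the adjusted p was 0.0433 after the GC and length trend was removed, within a range of 0.0433 to 0.323 over 15 alternatives. SNRNP200 (ENSG00000144028), the helicase, had 29.29, 28.26 and 26.84 in shNC and 23.64, 24.75 and 25.19 in shPQBP1. The shift was smaller than that of PRPF8 but the groups again stood apart. Its log2 fold change was -0.20 (standard error 0.07, 95% interval -0.37 to -0.02, adjusted p = 0.173 from limma).

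PRPF6 (ENSG00000101161), the bridge between U5 and U4/U6, was the most abundant of the 10 genes in both groups. Its FPKM was 60.46, 51.58 and 53.36 in shNC and 45.52, 47.06 and 43.68 in shPQBP1, and all shPQBP1 samples were lower. The log2 fold change was -0.28 (standard error 0.08, 95% interval -0.48 to -0.07, adjusted p = 0.132 from limma). SNRNP40 (ENSG00000060688) had 14.82, 12.58 and 11.86 in shNC and 10.97, 11.40 and 12.20 in shPQBP1. Here the groups overlapped, since shPQBP1 sample 3 was above shNC sample 3 (log2 fold change -0.18, 95% interval -0.44 to 0.08, adjusted p = 0.341).

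PRPF31 (ENSG00000105618), the U4/U6 protein among the 10, had FPKM values of 30.12, 24.49 and 23.76 in shNC and 22.78, 23.12 and 22.48 in shPQBP1. The groups did not overlap, but shNC samples 2 and 3 were close to the shPQBP1 samples. The log2 fold change was -0.19 (95% interval -0.45 to 0.07, adjusted p = 0.316 from limma), and without shNC sample 1 it was -0.08. TFPT, which starts 97 bp from PRPF31 in the opposite direction, had 28.23, 15.34 and 24.70 in shNC and 15.26, 17.71 and 13.66 in shPQBP1 (log2 fold change -0.51, adjusted p = 0.249). An antisense RNA, PRPF31-AS1, shares 589 of the 2673 exon bases of PRPF31 and lay between 0.11 and 0.32 FPKM. Of the other 8 partners, SNRNP40 also has a tested gene across its start, ZCCHC17, at 244 bp with a log2 fold change of -0.22 (adjusted p = 0.202). These neighbours were looked up after the values of the 10 genes were seen.

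**Figure D2:**
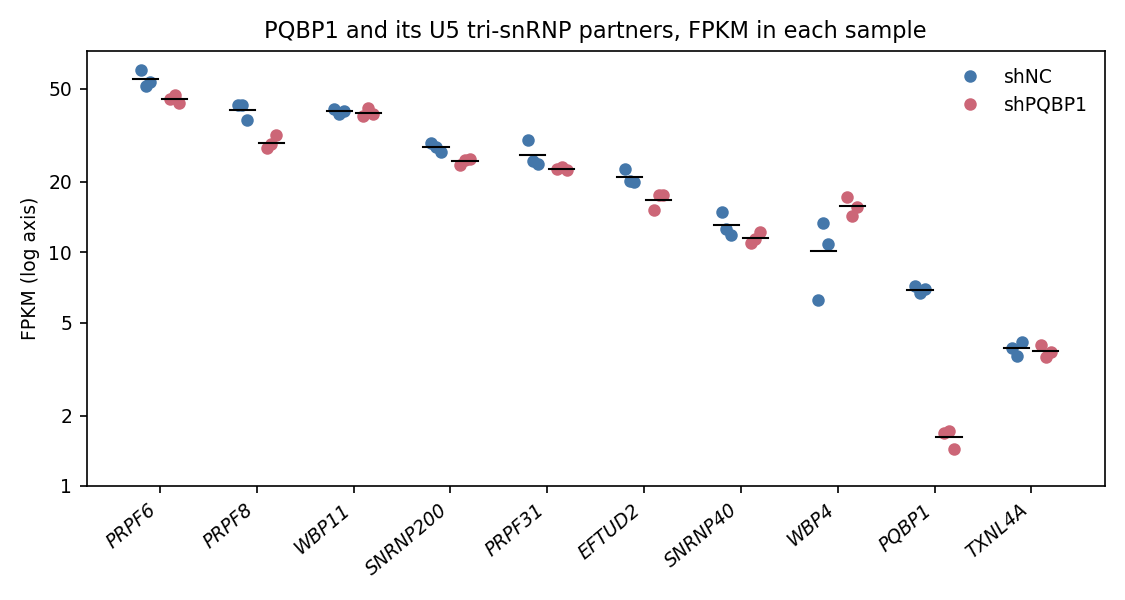
FPKM of the 10 genes on a log axis, ordered by their shNC mean, with 1 point per sample (3 shNC, 3 shPQBP1) and a bar at each group mean. PQBP1 drops from between 6.67 and 7.18 to between 1.44 and 1.72, and WBP4 is higher in shPQBP1. PRPF8, EFTUD2, SNRNP200, PRPF6 and, by a small gap, PRPF31 are lower without overlap.

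FPKM is scaled by transcript length, so levels can be compared between genes. In shNC the order of mean FPKM was PRPF6 at 55.1, PRPF8 at 40.7, WBP11 at 40.2, SNRNP200 at 28.1, PRPF31 at 26.1, EFTUD2 at 20.9, SNRNP40 at 13.1, WBP4 at 10.2, PQBP1 at 6.93 and TXNL4A at 3.87. PRPF8 and WBP11, SNRNP200 and PRPF31, SNRNP40 and WBP4, and WBP4 and PQBP1 had overlapping samples, and the other neighbours in this order did not. In shPQBP1 the order differed at 3 places. PQBP1 was last, below TXNL4A, with no overlap. PRPF8 was below WBP11 and WBP4 above SNRNP40, in both cases without overlap between the samples.

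Counted together, 6 of the 10 genes had an unadjusted p under 0.05, of which 5 were lower (PQBP1, PRPF8, EFTUD2, PRPF6 and SNRNP200) and 1 was higher (WBP4). Of all genes tested, 23.6% reached this level in either direction with 11.7% lower and 11.9% higher. Samples of the groups did not overlap for 6 genes lower in shPQBP1, beside 17.1% of all genes, and for 1 gene higher, beside 17.3%. The 6 include PQBP1, the target of the hairpin, and 5 partners. Without PQBP1, 8 of the 9 partners had a negative log2 fold change, beside 47.2% of all genes tested, 4 with an unadjusted p under 0.05, and their median was -0.19 beside 0.02 over all genes tested. Leaving out shNC sample 1 moved that median to -0.08. This sample held the highest FPKM of the 6 for 7 of the 10 genes and the lowest for WBP4, and it is also the sample with the lowest correlations. Its part in the partners' values beyond these figures was not tested. With any 1 of the 6 samples left out, between 3 and 6 of the 10 genes kept an unadjusted p under 0.05.

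**Figure D3:**
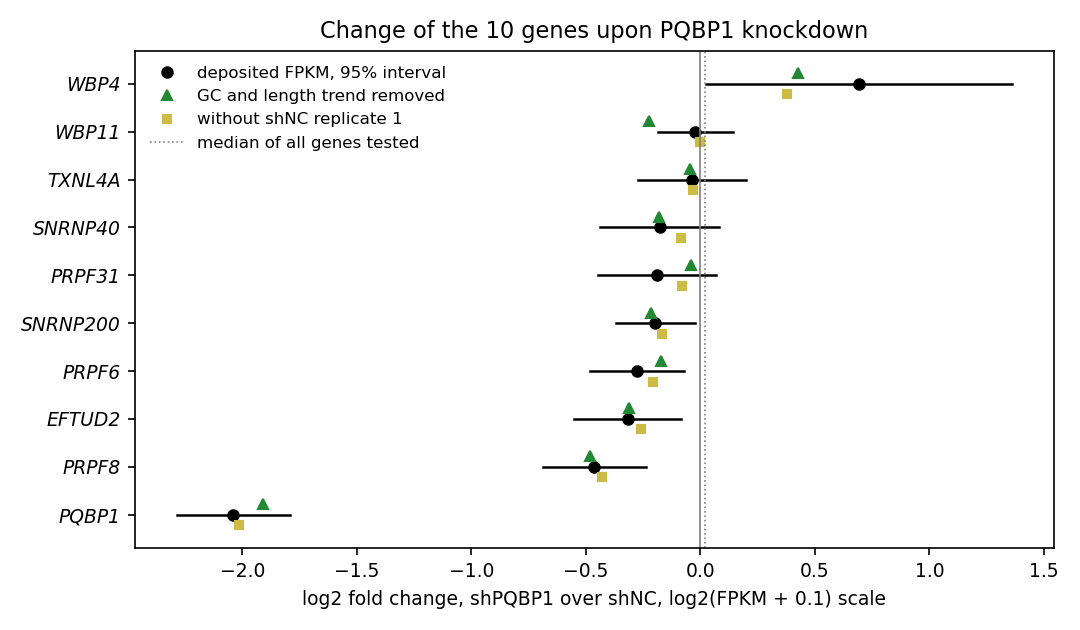
Log2 fold changes of the 10 genes (shPQBP1 over shNC, log2(FPKM + 0.1) scale) with 95% intervals from limma as black points and bars, the values after the GC and length trend was removed as green triangles, and the values without shNC sample 1 as yellow squares. PQBP1 stands at -2.04, far from the other 9 genes, which lie between -0.46 and 0.69; the dotted line is the median of all genes tested, 0.02.

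The log2 fold change of all genes followed the GC content of their transcripts. Across 11385 genes with a transcript sequence Spearman's rho was -0.46, a description in which the genes share the same 6 libraries. The median log2 fold change was 0.28 in the fifth of genes with the lowest GC content and -0.15 in the fifth with the highest. The transcripts of PRPF31, PQBP1 and PRPF6 had 58.8%, 58.5% and 57.0% GC, those of PRPF8, SNRNP200 and EFTUD2 52.4%, 52.3% and 52.1%, and those of TXNL4A, SNRNP40, WBP11 and WBP4 49.6%, 46.9%, 41.3% and 37.5%, beside a median of 47.5% for tested genes. With the trend removed, PRPF8 stayed at -0.48, EFTUD2 at -0.31, SNRNP200 at -0.21 and PQBP1 at -1.91, while PRPF6 moved to -0.17 and PRPF31 to -0.04. WBP11 moved to -0.22 (adjusted p = 0.311). In this setting PRPF8, EFTUD2 and the hairpin's own target PQBP1 had an adjusted p under 0.05. These were 3 of the 10 genes, beside 8.84% of all genes, up from 2.91% without the removal.

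A ratio within a sample is little affected by a common scaling factor for that sample. The log2 ratio of PQBP1 to the mean of its 9 partners was -1.53, -1.63 and -1.52 in shNC and -3.42, -3.40 and -3.66 in shPQBP1. PQBP1 thus stood lower against its partners in every shPQBP1 sample, by a difference of -1.93 on the log2 scale, or 0.262 of the control ratio (p = 0.1 by an exact permutation test, two-sided, which cannot give less with 3 samples a group). Over 11 alternatives the difference ran from -1.99 to -1.49, the smallest with a pseudocount of 1, and it was -1.77 with the GC and length trend removed. The same ratio was computed for each partner against the other 8, a step added after the values were seen. PRPF8 was lower by 0.40 without overlap of the groups (difference -0.40), and EFTUD2, PRPF6 and SNRNP200 also stood lower, at -0.23, -0.19 and -0.10. WBP4 was higher by 0.90 and WBP11 by 0.10, and these 6 partners had the smallest possible exact permutation p of 0.1 (two-sided, unadjusted). The FPKM of WBP11 itself did not rise (log2 fold change -0.02, overlapping groups). Its higher ratio comes from lower values among the other partners. TXNL4A at 0.08, SNRNP40 at -0.08 and PRPF31 at -0.09 had exact permutation p of 0.4, 0.6 and 0.8. Over these 10 ratios no adjusted p could fall below 0.1. For every partner but WBP4 the other 8 include WBP4, whose higher values in shPQBP1 lower the ratio. Partner ratios without WBP4 were not computed, but leaving it out would raise the ratio difference of every other partner. The small negative differences of SNRNP200, SNRNP40 and PRPF31 therefore cannot be read as a fall relative to the remaining partners. Those of PRPF8, EFTUD2 and PRPF6 would be smaller in size.

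**Figure D4:**
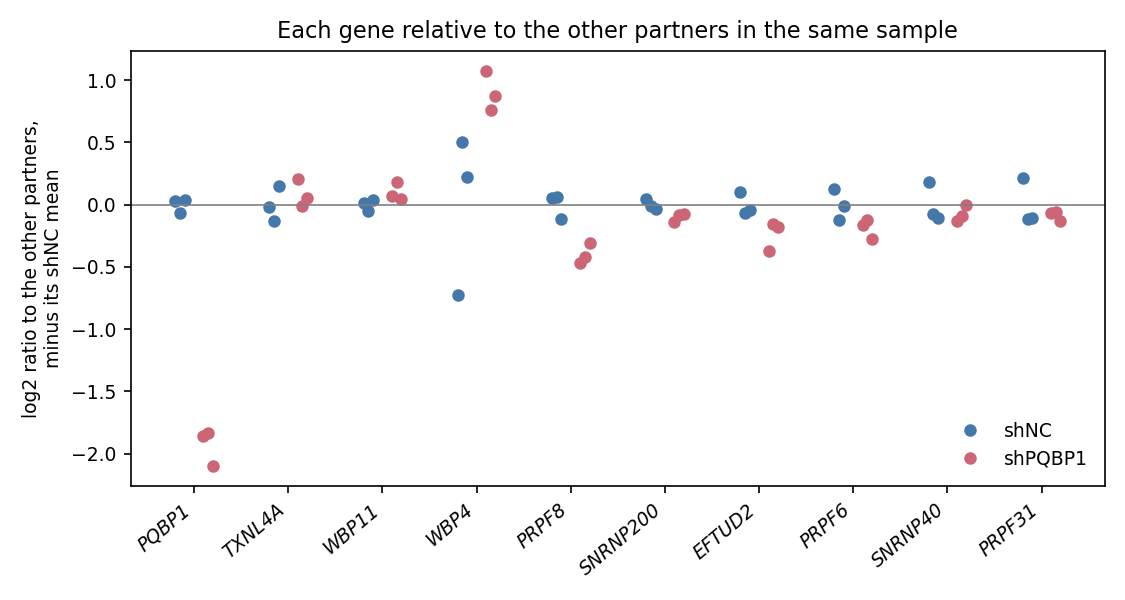
The log2 ratio of each gene to the mean of the other partners in the same sample (PQBP1 to all 9, each partner to the other 8), shown minus its shNC mean, with 1 point per sample. The PQBP1 points of shPQBP1 lie near -2, those of PRPF8 below all shNC points, and those of WBP4 above them, with WBP4 in shNC sample 1 far below the other shNC samples.

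The other proteins of these particles were counted from lists written by name. Of 35 genes of the tri-snRNP, its assembly factors, the B complex and the Sm and LSm rings that are not among the 10, all were tested. None had an adjusted p under 0.05 (limma), and 8 had an unadjusted p under 0.05. Of all genes 23.6% reached this in either direction, so the total of 8 is near the background. By direction, 7 were lower, beside 11.7% of all genes, and 1 was higher, beside 11.9%. A negative log2 fold change was seen in 23 of the 35, beside 47.2% of all genes, and their median was -0.07. For the lists that follow, the same shares of all genes apply, 47.2% with a negative value and 11.7% lower with an unadjusted p under 0.05, and no list was tested as a whole. These lists also hold those of the 10 genes that belong to them, so their counts partly repeat values given above.

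By particle, 7 of the 8 U5 proteins had negative values, 5 with an unadjusted p under 0.05, and their median was -0.22. All but DDX23 and CD2BP2 are among the genes examined above, so most of this count repeats their values. PRPF8 was the lowest and CD2BP2, which binds U5 but leaves before the tri-snRNP forms, the highest at 0.02. DDX23, the U5 helicase that acts when the tri-snRNP joins, was at -0.24 (adjusted p = 0.161) and completes the 5; it was named after its value was seen. Of the 5 U4/U6 proteins, 4 were negative, 2 with an unadjusted p under 0.05, with a median of -0.19. PPIH, the cyclophilin of U4/U6, had 36.15, 29.58 and 31.09 FPKM in shNC and 25.53, 25.86 and 26.63 in shPQBP1, all lower, and a log2 fold change of -0.31 (adjusted p = 0.132, and 0.0315 with the GC and length trend removed). PRPF4, its partner in the particle, was at 0.09 (adjusted p = 0.473). Of the 3 proteins particular to the tri-snRNP, all negative with a median of -0.09, SART1 was lowest at -0.35 (adjusted p = 0.120).

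Assembly and recycling factors showed a median of -0.11, with 4 of 6 negative and 1 with an unadjusted p under 0.05. ZNHIT2, a cofactor in U5 assembly, was lowest at -0.43 with overlapping groups (adjusted p = 0.282), and SART3, the U6 recycling factor, highest at 0.05 (adjusted p = 0.695). The 10 B complex genes, with PQBP1, WBP11 and WBP4 among them, were split 5 to 5 and had a median of -0.01, with PQBP1 at the low end and WBP4 at the high end. Of the 7 Sm proteins, which ring the U4 and U5 RNAs, 5 were negative and 2 of these had an unadjusted p under 0.05. SNRPD2 was lowest at -0.54, with FPKM values of 45.01, 34.17 and 75.86 in shNC and 32.53, 35.40 and 32.86 in shPQBP1 (adjusted p = 0.283). The shNC samples spread widely and shNC sample 2 was within the range of shPQBP1. SNRPD1 was highest at 0.18 (adjusted p = 0.256).

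None of the 7 LSm proteins, which ring U6, had an unadjusted p under 0.05, and their median was -0.07. LSM7 was lowest at -0.14 (adjusted p = 0.629). LSM4 was highest at 0.95 with an adjusted p of 0.318, from FPKM values of 26.43, 7.92 and 5.84 in shNC and 21.88, 18.16 and 22.39 in shPQBP1. Its shNC sample 1 lay above all other samples, and without that sample its log2 fold change was 1.59 with an adjusted p of 0.0184, in a setting that called 4.07% of all genes. The RNAs of the particles were hardly seen in these poly(A) libraries. Of 14 listed U4, U5 and U6 genes 11 were in the table, and all but RNU6-8 stayed at or below 0.51 FPKM. RNU6-8 had 1.88, 1.12 and 1.5 in shNC and 1.87, 1.37 and 1.16 in shPQBP1 (adjusted p = 0.951).

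**Figure D5:**
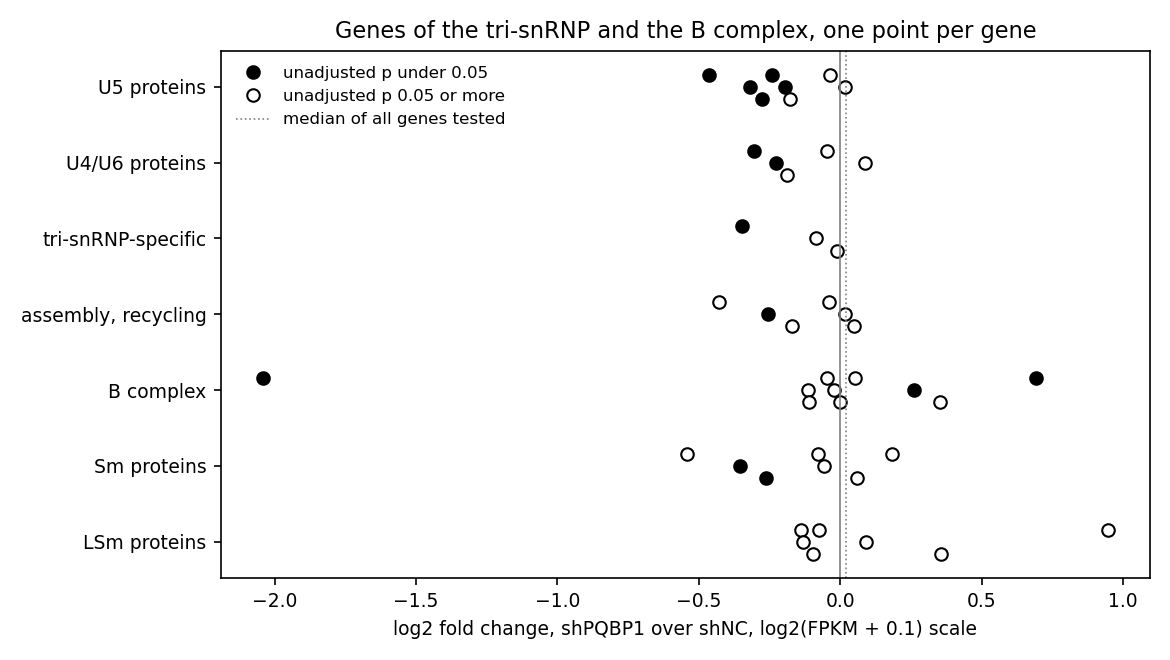
Log2 fold changes (shPQBP1 over shNC, log2(FPKM + 0.1) scale) with 1 point per gene in 7 lists of tri-snRNP and B complex genes, filled where the unadjusted p is under 0.05, and the median of all genes tested as a dotted line. Of the 8 U5 points 7 are left of 0 and 5 are filled, while the 10 B complex points include PQBP1 at -2.04 and WBP4 at 0.69.

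The genes whose pattern over the 6 samples was most like that of PQBP1 were found by the root mean square difference of centred log2 values, a measure that used the same contrast, so they are given as a description. They were MT-TF, the mitochondrial tRNA for phenylalanine, with a difference of 0.131, FBLN1 (fibulin 1, an extracellular matrix protein) with 0.173, CRAMP1 with 0.177, MX1 (an interferon-induced GTPase) with 0.177 and NUDT4 (a diphosphoinositol polyphosphate phosphatase) with 0.211. NUDT4 has a near-identical copy in the genome, so its reads may be split between them. MT-TF is a tRNA gene measured in poly(A) libraries, and which reads gave its value was not examined. None was on the lists of spliceosome genes. MT-TF stood at 630.9, 597.8 and 656.8 FPKM in shNC and at 156.6, 179.7 and 173.2 in shPQBP1, a log2 fold change of -1.89, and the other 4 lay between -2.25 and -1.73.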

How the data were processed

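The samples were 3 shNC and 3 shPQBP1 HEY cultures, grouped by their labels. Per the labels and the study's methods, the authors used HISAT2 (version 2.2.0) for mapping to hg38, SAMtools (version 1.9), StringTie (version 1.3.0) for transcripts and edgeR for their comparison. Their annotation and the handling of strand are not given in the sources used here. The FPKM values were deposited by the authors per gene and sample, rounded to 2 decimals. The deposited table also holds the authors' own comparison, a fold change with its log2 value and p-values, and none of these columns was used.

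Depth is unknown, since the low values of single-exon genes showed no clear steps of whole reads (strength 0.094 to 0.118, where 1 means that all values are whole steps), and no counting interval is given. Precision rests on the spread between samples. The hairpin's sequence was not used here. No pair of samples looked like the same library deposited again, with at most 0.87% of tested genes at equal values.

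Genes averaging 1 FPKM or more were tested on log2(FPKM + 0.1), which understates changes of low genes, with limma (version 3.58.1, R version 4.3.3; two-sided moderated test, with the variance trended on the mean) and Benjamini-Hochberg adjustment over the 11413 genes. Single values were compared with exact permutation tests (scipy version 1.17.1). The fit was tested on simulated data with independent normal noise for each gene. That simulation held no GC trend and no deviating sample, so it cannot show how either affects the calls. Positions, exon overlaps, GC content and lengths came from GENCODE release 44 on hg38, and the promoter sequence from RefSeq. The trend on GC content and length was removed with natural splines (5 degrees of freedom each).

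The 10 genes, the lists and the alternatives were chosen with earlier results of these data known. Genes named are the 10 members, any listed gene at an adjusted p under 0.05, otherwise the largest rise and fall per list, and the 5 genes most like PQBP1. PIM2, GRIPAP1, OTUD5, TFPT, ZCCHC17, PRPF31-AS1, DDX23 and the copies of WBP11 fall outside this rule and were named after their values were seen, as neighbours, copies or members of a small count. Alternatives were other scalings, filters and pseudocounts, an untrended variance, a block for the labels' replicate numbers, omission of each sample, and the removal of the GC and length trend.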

Additional observations from a re-analysis of the deposited data

How the results depend on the processing

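PQBP1 stayed lower in every alternative that tested it, with a log2 fold change between -2.10 and -1.60, and lost its adjusted p under 0.05 only with the replicate block (-2.04, adjusted p = 0.0686). The labels share replicate numbers, but samples with the same number did not deviate together (correlations -0.186, -0.138 and -0.011), so they were not taken as pairs. With that block 0 of all genes and 0 of the 10 were called by limma, and 1840 genes and 2 of the 10 had an unadjusted p under 0.05. Over all genes the 332 calls became 190 with all genes tested that exceed 0 anywhere, 211 with a mean FPKM of at least 10, 1006 with the GC and length trend removed, and between 30 and 464 with each sample left out. Of the 10, 2 were called with quantile normalization (PQBP1 and PRPF8) and 3 with the GC and length trend removed. With a mean FPKM of at least 10, PQBP1 and TXNL4A were not tested and PRPF8 was the 1 gene called. Of the 35 other tri-snRNP genes 1 was called with the GC and length trend removed (PPIH) and between 0 and 1 with each sample left out (LSM4, without shNC sample 1). The near-zero values turned sign with a sample left out, within -0.0884 to 0.0118 for TXNL4A (0.0118 without shNC sample 3 and 0.0057 without shPQBP1 sample 2) and within -0.0565 to 0.0017 for WBP11 (the latter without shPQBP1 sample 1). The cause of these shifts was not tested. These settings kept the median of all genes between -0.022 and 0.029. Depth is unknown, so its limits cannot be given.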
